A study of Mus musculus with 4 samples.

Results

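The regions described here are stretches of macrophage chromatin that held an H3K4me3 peak with and without lipopolysaccharide (LPS), reached a high peak score in at least 1 library, and were covered by wider peaks after LPS. H3K4me3, histone H3 trimethylated on lysine 4, was mapped by chromatin immunoprecipitation and sequencing, and the authors deposited 1 list of peaks per library. Peaks of the 4 lists that overlapped were joined into 18786 regions, and 12294 regions held at least 1 peak from each list. In 9850 of these the highest peak score was 3100 or above, and they are called the shared strong regions. A region was counted as widened where the log2 ratio of its summed peak width, LPS over untreated, averaged 0.5 or higher over the 2 genotypes, which is a 1.414-fold width. By this rule 328 regions were selected on their measured peak scores and LPS and untreated peak widths, 3.33% of the shared strong regions. The LPS width ratios of these members are therefore given as a description, with no test.

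The cells were primary macrophages grown from mouse bone marrow and taken on day 7 of differentiation, from mice of a mixed background (94% C57BL/6, 6% 129/Ola). The 4 groups were LPS-treated Wbp7-/- cells, untreated Wbp7-/- cells, LPS-treated Wbp7+/- cells and untreated Wbp7+/- cells, with 1 library each. Treated cells received 10 ug/ml LPS for 4 h by their labels, but the header of the list from LPS-treated Wbp7+/- cells names 24 h, so the time of that library is uncertain. Both genotypes lack at least 1 functional copy of Wbp7, and no wild-type group was analysed here. The labels do not say how many animals gave each library or how the allele was made. With 1 library per group, differences below could not be checked against replicates, and no test was run.

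H3K4me3 is found mainly around the starts of active genes, and the width of the marked stretch varies from gene to gene. The product of Wbp7 (Kmt2b) is one of several enzymes that add methyl groups to this lysine. LPS, a component of the outer membrane of Gram-negative bacteria, is sensed by macrophages through Toll-like receptor 4 and switches on a large inflammatory gene programme within hours. Positions are those of the lists, in the mm9 mouse genome and counted from 1. Genes at these positions were not analysed here, because the gene and promoter tables used were of GRCm38. For the same reason, macrophage markers were not checked and no sequence is printed.

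The lists held 15086 and 14599 peaks in LPS-treated and untreated Wbp7-/- cells, and 17313 and 17316 in LPS-treated and untreated Wbp7+/- cells. They covered 33.9, 33.47, 34.93 and 34.51 Mb in the same order. From 8950 to 9695 peaks per list scored 3100 or above, where the peak caller's scores pile up, and this level is called the ceiling. Numbers of reads are unknown, and peak widths and scores both depend on them.

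The widened regions were slightly narrower than other strong regions before treatment and broader after it. Their summed peak width had a median of 3854.5 bp in LPS-treated and 2151 bp in untreated Wbp7-/- cells, with ranges of 1169 to 14083 bp and 438 to 5911 bp. In Wbp7+/- cells the medians were 4207 bp after LPS and 2361 bp untreated, with ranges of 1294 to 14035 bp and 721 to 7858 bp. The other 9522 shared strong regions had medians of 2558 and 2623 bp in LPS-treated and untreated Wbp7-/- cells, and 2403 and 2484.5 bp in Wbp7+/- cells. The rule used these widths, so the contrast between the 2 sets is partly set by it.

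**Figure D1:**
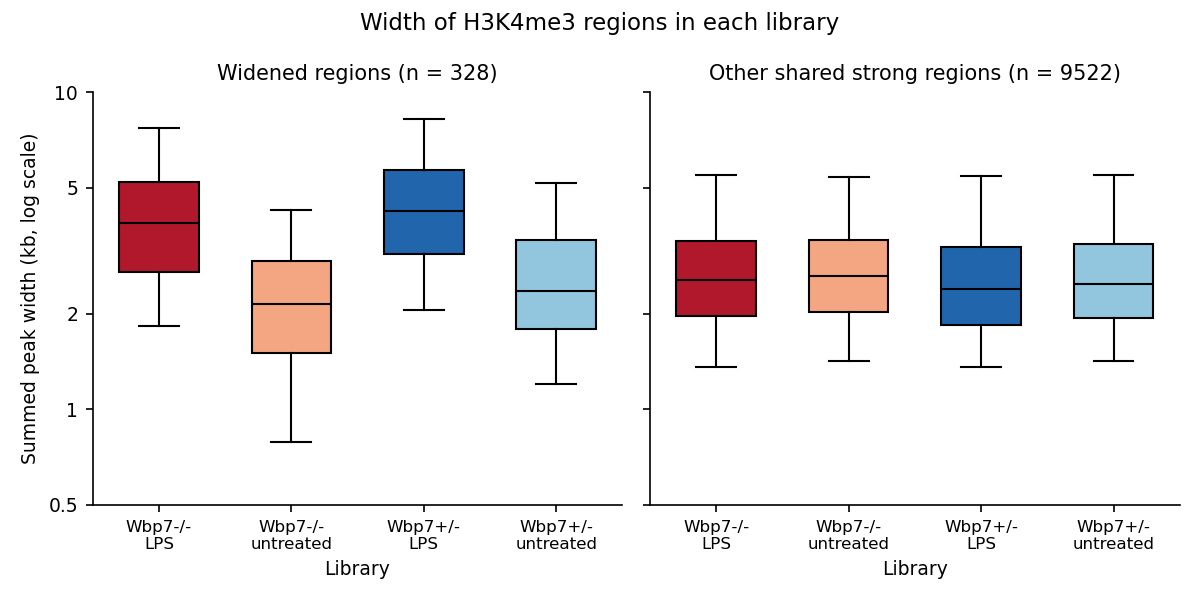
Summed peak width (kb, log scale) of the 328 widened regions and the 9522 other shared strong regions in each library. Boxes span the quartiles with the median as a line, and whiskers run from the 5th to the 95th percentile. In the widened regions the medians are 3854.5 and 2151 bp with and without LPS in Wbp7-/- cells and 4207 and 2361 bp in Wbp7+/- cells, whereas the other regions stay near 2.5 kb in all 4 libraries.

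Added over all members, peaks covered 1.3667 Mb in LPS-treated and 0.7603 Mb in untreated Wbp7-/- cells, a gain of 79.8%. In Wbp7+/- cells they covered 1.502 Mb after LPS and 0.892 Mb untreated, a gain of 68.4%. The other shared strong regions covered slightly less with LPS, by -1.46% in Wbp7-/- and -2.25% in Wbp7+/- cells. The median gain of a widened region was 1546.5 bp in Wbp7-/- cells, against 1608 bp in Wbp7+/- cells.

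Many members reached a summed peak width of 5 kb or more with LPS, in some as separate peaks. In Wbp7-/- cells 92 of the 328 (28.0%) were that broad after LPS and 9 (2.74%) untreated, against 7.8% and 6.6% of all shared strong regions and 7.1% and 6.73% of those outside the members. In Wbp7+/- cells the numbers were 115 (35.1%) and 21 (6.4%), against 7.82% and 6.81% of all and 6.88% and 6.83% outside the members. The members account for 83 of the 203 shared strong regions that crossed 5 kb upward with LPS in Wbp7-/- cells, and for 94 of 211 in Wbp7+/- cells. The rule selected on LPS over untreated width, so the shares after LPS and the upward crossings are partly set by it. No member crossed it downward in either genotype, as the rule makes nearly certain, and 0 of 328 allows a share of up to 0.915%.

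The strongest widening was seen on chromosome 7 from 133734834 to 133743517. Its peak measured 8529 bp in LPS-treated and 998 bp in untreated Wbp7-/- cells, and 7808 bp in LPS-treated and 1853 bp in untreated Wbp7+/- cells. These are 8.55-fold and 4.21-fold widths, and the signal grew at both ends, by 3036 and 4495 bp in Wbp7-/- cells. A second region on chromosome 7, from 3498897 to 3503804, covered 4682 bp after LPS and 1053 bp untreated in Wbp7-/- cells, and 4851 and 727 bp in Wbp7+/- cells. Here the growth lay almost wholly at the lower-coordinate end, with 3639 bp there and 171 bp at the other end in Wbp7-/- cells. The LPS signal of Wbp7-/- cells was split into 3 peaks, while that of Wbp7+/- cells was 1 unbroken peak.

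On chromosome 8 from 41946565 to 41952285, peaks summed to 5122 bp in LPS-treated and 728 bp in untreated Wbp7-/- cells, and to 5721 and 1366 bp in Wbp7+/- cells. The region on chromosome 14 from 103411420 to 103415428 measured 4009 and 791 bp with and without LPS in Wbp7-/- cells and 3433 and 721 bp in Wbp7+/- cells. These were the only members, with the 2 on chromosome 7, whose mean log2 ratio was 2 or higher, and in all 4 regions both LPS widths lay far above both untreated widths. Their untreated peaks were weak, with scores of 52.81, 106.06, 66.7 and 74.01 in Wbp7-/- cells, in the order named. In untreated Wbp7+/- cells the scores were 430.48, 111.3, 518.91 and 79.91. Of the 20 members with the largest mean log2 ratio, 16 were below the ceiling in the untreated Wbp7-/- list and 13 in the untreated Wbp7+/- list. Of the 328 members, 74 had a mean log2 ratio of 1 or higher.

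Several of the next regions had a much weaker untreated peak in Wbp7-/- than in Wbp7+/- cells. On chromosome 19 from 11481275 to 11485948, the widths were 4574 bp after LPS and 752 bp untreated in Wbp7-/- cells, and 4674 and 2133 bp in Wbp7+/- cells. The untreated Wbp7+/- signal was already 2 peaks there, and the LPS widths of the genotypes were nearly equal. On chromosome 5 from 91331612 to 91336061, peaks covered 4368 and 943 bp with and without LPS in Wbp7-/- cells and 4350 and 2107 bp in Wbp7+/- cells. On the same chromosome from 92773046 to 92778990, the widths were 5038 and 1267 bp in Wbp7-/- cells and 5445 and 2971 bp in Wbp7+/- cells. On chromosome 3 from 151409930 to 151413121, they were 2455 and 539 bp in Wbp7-/- cells and 3192 and 1810 bp in Wbp7+/- cells. In these 4 regions the log2 ratio was higher in Wbp7-/- cells, the untreated width was lower there, and the LPS widths of the genotypes differed by less than the untreated ones.

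Other regions ended narrower in LPS-treated Wbp7-/- than in LPS-treated Wbp7+/- cells. On chromosome 2 from 164280566 to 164284723, the peak measured 1845 bp after LPS and 700 bp untreated in Wbp7-/- cells, against 4158 and 943 bp in Wbp7+/- cells. On chromosome 3 from 14641031 to 14645190, the widths were 2295 and 697 bp in Wbp7-/- cells and 4160 and 1355 bp in Wbp7+/- cells. The region on chromosome 13 from 42396081 to 42401059 had 3266 and 1169 bp in Wbp7-/- cells and 4979 and 1597 bp in Wbp7+/- cells. All 3 widened in both genotypes, and none was at the ceiling in LPS-treated Wbp7-/- cells. Genotype and LPS time cannot be told apart here, because the time of the LPS-treated Wbp7+/- library is uncertain.

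Still other leading regions were at the ceiling in every list, so their untreated peaks were not weak calls. On chromosome 4 from 45811613 to 45814599, the widths were 2921 and 965 bp with and without LPS in Wbp7-/- cells and 2875 and 969 bp in Wbp7+/- cells, about a 3.03-fold and a 2.97-fold width. On chromosome 10 from 87814020 to 87820886, they were 6618 and 2087 bp in Wbp7-/- cells and 6867 and 2806 bp in Wbp7+/- cells. The region on chromosome 16 from 84701458 to 84709681 had 7346 and 2846 bp in Wbp7-/- cells and 8224 and 2750 bp in Wbp7+/- cells. Both genotypes gave the same picture at each, with LPS widths far above the untreated ones.

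**Figure D2:**
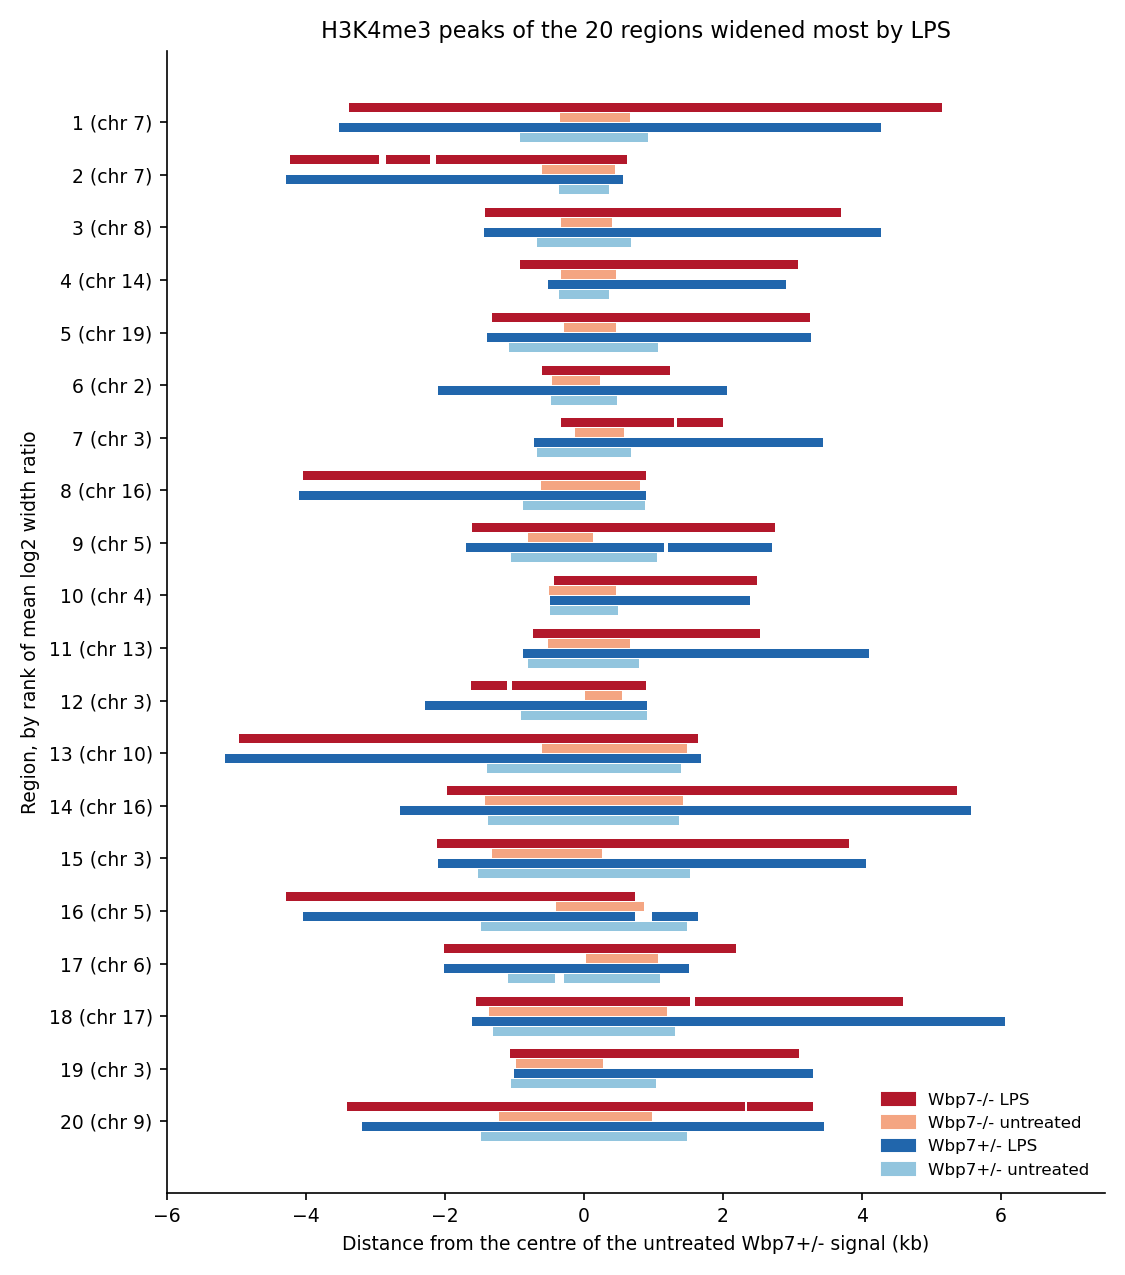
Peaks of the 20 members with the largest mean log2 width ratio, drawn as bars against the distance from the centre of the untreated Wbp7+/- signal (kb). Each region has 4 rows, 1 per library, and the LPS bars reach beyond the untreated bars on 1 side or both, with 15 of the 20 regions having 75% or more of their outward shift on 1 side.

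The broadest member after LPS lay on chromosome 2 from 34806967 to 34821594. It covered 14083 bp in LPS-treated and 5544 bp in untreated Wbp7-/- cells, and 14035 and 5688 bp in Wbp7+/- cells. Untreated cells of both genotypes had 4 separate peaks there. With LPS, the Wbp7-/- signal was still split into 4 peaks and the Wbp7+/- signal into 2 peaks. On chromosome 11, the region from 54765058 to 54777530 covered 11796 and 5408 bp in Wbp7-/- cells and 12407 and 7409 bp in Wbp7+/- cells. The region of the same chromosome from 22749633 to 22762115 covered 11329 and 4957 bp in Wbp7-/- cells and 12483 and 7675 bp in Wbp7+/- cells. On chromosome 16 from 97754805 to 97765698 the widths were 9869 and 4976 bp in Wbp7-/- cells and 10858 and 7303 bp in Wbp7+/- cells, and on chromosome 5 from 115368619 to 115379132 they were 9165 and 4332 bp in Wbp7-/- cells and 10348 and 5252 bp in Wbp7+/- cells. In these 5 regions every LPS width was above both untreated widths.

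Members at the edge of the rule had the lowest mean log2 ratios by construction, but not always a small gain in bp. The 5 members nearest the threshold had mean log2 ratios of 0.5005 to 0.507, and the 5 regions just outside it 0.492 to 0.4989. Just inside, the region on chromosome 3 from 133203431 to 133208800 measured 5370 bp after LPS and 3658 bp untreated in Wbp7-/- cells, and 5050 and 3704 bp in Wbp7+/- cells. Just outside, the region on chromosome 16 from 35935438 to 35941326 measured 5424 and 3443 bp in Wbp7-/- cells and 5849 and 4615 bp in Wbp7+/- cells. Members and non-members near the threshold do not form separate groups.

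A log2 ratio of 0.5 or higher was reached in both genotypes at 209 of the 328 members, in Wbp7-/- cells alone at 64 and in Wbp7+/- cells alone at 55. Among all shared strong regions, 3.61% reached it in Wbp7-/- cells, 3.82% in Wbp7+/- cells and 2.12% in both. The 209 are 58.7% of the 356 regions widened in Wbp7-/- cells (Wilson 95% interval 53.5 to 63.7) and 55.6% of the 376 widened in Wbp7+/- cells (50.5 to 60.5). All 3 counts use the ratios that the rule averaged, so nothing is read from them. Wilson intervals here and below cover counting error over regions only. Over the 9850 regions, Pearson's r between the log2 ratios of the genotypes was 0.577. It was 0.345 over the 9522 regions outside the members and 0.259 over the 328 members. The rule split the regions on the mean of these ratios, which affects r in both parts. In the opposite direction, 69 shared strong regions (0.701%) had a mean log2 ratio of -0.5 or lower.

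**Figure D3:**
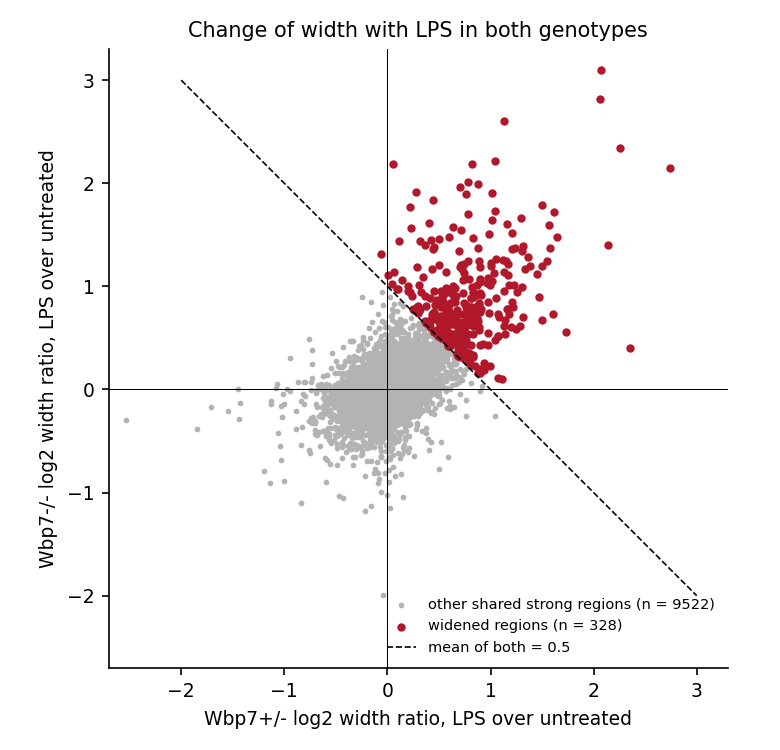
Log2 width ratio, LPS over untreated, of each shared strong region in Wbp7-/- cells (vertical axis) against Wbp7+/- cells (horizontal axis). The 328 members lie above the dashed line where the mean of both is 0.5, and 1 of them lies left of 0 on the horizontal axis.

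Among the 64 members past 0.5 in Wbp7-/- cells alone were the 3 whose log2 ratio in Wbp7-/- cells exceeded that in Wbp7+/- cells the most. On chromosome 17 from 34399873 to 34402726, the widths were 2350 bp after LPS and 515 bp untreated in Wbp7-/- cells, against 2829 and 2728 bp in Wbp7+/- cells. On chromosome 15 from 31293955 to 31298102, they were 3277 and 870 bp in Wbp7-/- cells and 4148 and 3413 bp in Wbp7+/- cells. Likewise, chromosome 14 from 28148585 to 28151538 had 2541 and 747 bp in Wbp7-/- cells and 2954 and 2537 bp in Wbp7+/- cells. In all 3 the untreated Wbp7-/- peak stood out as narrow, with scores of 63.64, 79.07 and 61.99, close to the lowest scores of the list.

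A larger log2 ratio in Wbp7+/- cells was seen on chromosome 15 from 98502561 to 98508702. Its widths were 2482 and 1872 bp in Wbp7-/- cells and 6142 and 1202 bp in Wbp7+/- cells. On chromosome 6 from 97779182 to 97783711, the widths were 3307 and 2249 bp in Wbp7-/- cells and 4503 and 1352 bp in Wbp7+/- cells. On chromosome 11 from 100435508 to 100439211 they were 1877 and 1739 bp in Wbp7-/- cells, nearly the same with and without LPS, and 3704 and 1764 bp in Wbp7+/- cells. The region on chromosome 8 from 70732689 to 70736527 had 3797 and 3533 bp in Wbp7-/- cells and 3581 and 1657 bp in Wbp7+/- cells. That on chromosome 1 from 151946393 to 151950090 had 3159 and 1902 bp in Wbp7-/- cells and 3698 and 1217 bp in Wbp7+/- cells, so all 5 gained more width in Wbp7+/- cells. Whether the LPS effect differs between the genotypes at any of these was not tested. Over all members the log2 ratio was larger in Wbp7-/- cells at 179 of 328 (54.6%, 49.2 to 59.9), against 52.6% of all shared strong regions, a share near the background. Its median was 0.76 in Wbp7-/- and 0.72 in Wbp7+/- cells.

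The added width lay at the outer edges rather than in gaps. Outward shifts of the first start and the last end made up 97.6% of the summed gain of the members in Wbp7-/- cells and 95.4% in Wbp7+/- cells. At most members both lists of a genotype had unbroken signal, and 207 of 328 (63.1%) had exactly 1 peak in every list, against 85.0% of all shared strong regions. An untreated list held more peaks than the LPS list of the same genotype at 50 members (15.2%, 11.8 to 19.5), against 7.38% of all shared strong regions. More than 1 peak in an untreated list was present at 65 members (19.8%), against a background of 10.4%. Split signal was not confined to untreated cells, because 90 members (27.4%) had more than 1 peak in an LPS list, against 10.4% of all shared strong regions. At such a region on chromosome 16 from 3712941 to 3718763, 2 untreated Wbp7+/- peaks became 1 with LPS, and the widths were 5235 and 1410 bp in Wbp7-/- cells and 5823 and 3429 bp in Wbp7+/- cells. On chromosome 9 from 51972426 to 51981506, the widths were 9081 and 2912 bp in Wbp7-/- cells, as 1 peak each, and 8242 and 4084 bp in Wbp7+/- cells, as 3 peaks after LPS and 2 untreated. Joining of separate peaks was thus seen in 1 of these regions and not in the other.

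Gap filling was the main part of the gain in both genotypes at 5 members. On chromosome 11 from 54765058 to 54777530, named above, 2 untreated peaks of Wbp7-/- cells and 3 of Wbp7+/- cells became 2 peaks and 1 peak with LPS. On chromosome 19 from 29440339 to 29447495, 2 untreated peaks in each genotype became 1 peak, of 7091 bp in Wbp7-/- cells and 7157 bp in Wbp7+/- cells. On chromosome 1 from 173367155 to 173372955 the outer edges did not move outward on average, with widths of 5170 and 4002 bp in Wbp7-/- cells and 5637 and 3345 bp in Wbp7+/- cells. This was the only member without an outward shift on either side.

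The outward shift was usually larger at 1 end. Averaged over the genotypes, the further-moved edge shifted by a median of 1342.8 bp (quartiles 916.6 and 1942.8 bp) and the other edge by 169.5 bp (31 and 361 bp). At 250 of the 327 members with any outward shift (76.5%, 71.6 to 80.7), 75% or more of it lay on 1 side. Such a share is no property of the members alone, because 87.2% of the 5784 shared strong regions with any outward shift had the same, though their shifts were small. Inward shifts do not enter this measure, so a region with 1 edge moving outward and the other inward counts as fully on 1 side. The less-moved edge moved inward at 18.0% of the members, against 81.4% of all shared strong regions, with or without an outward shift. The 87.2% thus does not separate uneven spread from an inward move of the other edge. The further-moved edge was at the higher coordinate at 175 members and at the lower at 153.

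The same edge usually moved further in both genotypes. The edge with the larger outward shift was the same in Wbp7-/- and Wbp7+/- cells at 297 of the 328 members (90.5%, 86.9 to 93.3), against 58.1% of all shared strong regions. The rule selected on width, and most of the members' gain in width lay at the outer edges, so this share is a description too. Pearson's r between the genotypes for the shift of the higher minus that of the lower edge was 0.835 over the 328 members and 0.315 over the 9522 other regions. Shifts of the other regions were mostly small, and the part of shift size in the difference between the 2 values was not tested.

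The region on chromosome 16 from 55834627 to 55839622 shows this spread to 1 side. Its lower-coordinate edge moved outward by 3422 bp in Wbp7-/- cells and by 3212 bp in Wbp7+/- cells, while the other edge moved by 83 and 15 bp. Its widths were 4935 and 1430 bp with and without LPS in Wbp7-/- cells, and 4996 and 1769 bp in Wbp7+/- cells. On chromosome 17 from 13199822 to 13207496, it was the higher-coordinate edge that moved, by 3391 bp in Wbp7-/- cells and by 4751 bp in Wbp7+/- cells, and the lower one moved by 186 and 303 bp. By contrast, on chromosome 9 from 110956018 to 110962881 both edges moved alike, by 2190 and 2322 bp in Wbp7-/- cells and 1712 and 1966 bp in Wbp7+/- cells.

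Edge positions were also compared between the genotypes. Between LPS-treated Wbp7-/- and LPS-treated Wbp7+/- cells, the further-moved edge differed by a median of 267 bp and the other edge by 91.5 bp. In untreated cells the same edges differed by medians of 234 and 86.5 bp. In the other shared strong regions the further-moved edge differed by medians of 108 bp after LPS and 99 bp untreated. The other edge differed there by 127 and 110 bp. The further-moved edge thus differed more between the genotypes in the members, and the other edge less, both with and without LPS. Which edge moved further was read from the same edge positions, so this is a description. The upper quartile of the distance at the further-moved edge in the members was 699 bp after LPS.

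**Figure D4:**
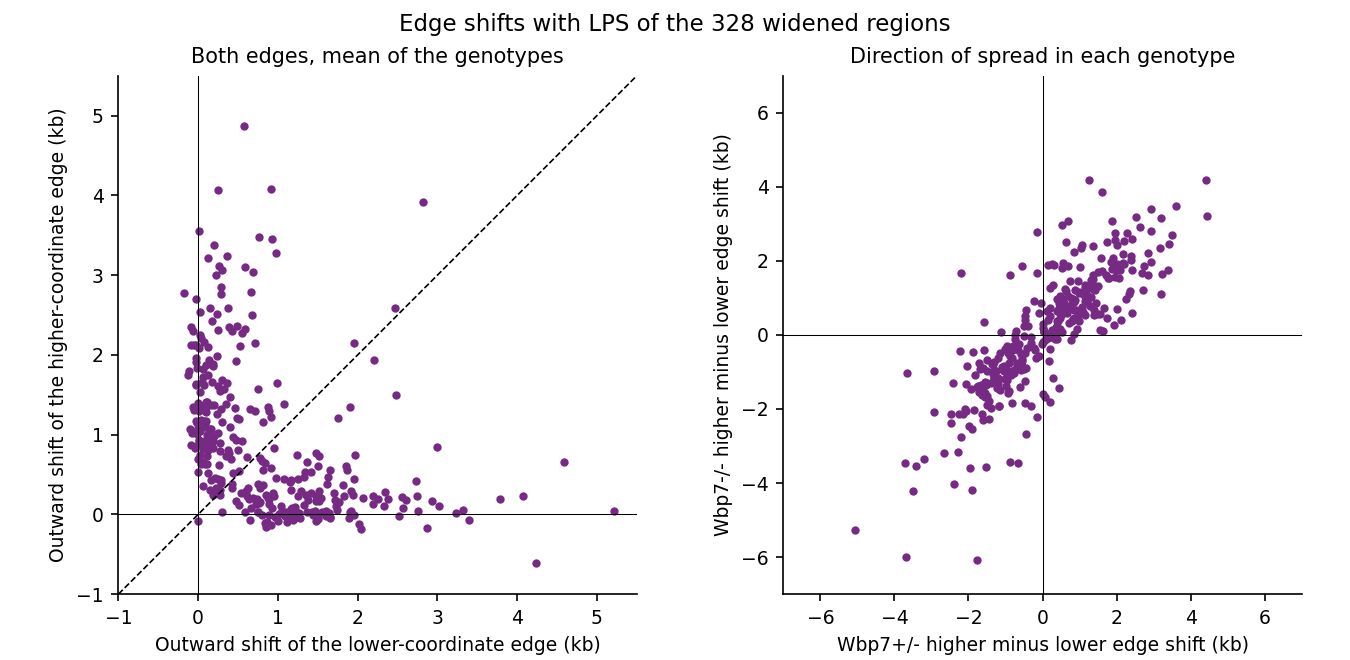
Outward edge shifts with LPS of the 328 members (kb). The left panel sets the higher-coordinate edge against the lower-coordinate edge, averaged over the genotypes, and most points lie along an axis and away from the dashed line of equal shift. The right panel sets the difference of the 2 shifts in Wbp7-/- cells against that in Wbp7+/- cells, with the same sign at 297 of 328 members.

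The width of a member in Wbp7-/- against Wbp7+/- cells comes from the same 4 widths that the rule used, and it is given as a description. Members tended to be narrower in Wbp7-/- cells, while shared strong regions as a whole tended to be wider there. After LPS, 91 of 328 members (27.7%, 23.2 to 32.8) were wider in Wbp7-/- than in Wbp7+/- cells, against 64.4% of all shared strong regions. In untreated cells 114 members (34.8%, 29.8 to 40.1) were wider in Wbp7-/- cells, against 64.0%. The median log2 width, Wbp7-/- over Wbp7+/-, was -0.10 after LPS and -0.11 untreated in the members, and 0.06 and 0.05 in all shared strong regions. Both contrasts rest on 1 library per group. The LPS-treated Wbp7+/- library is the one of uncertain LPS time, so genotype and time cannot be told apart in the contrast after LPS.

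**Figure D5:**
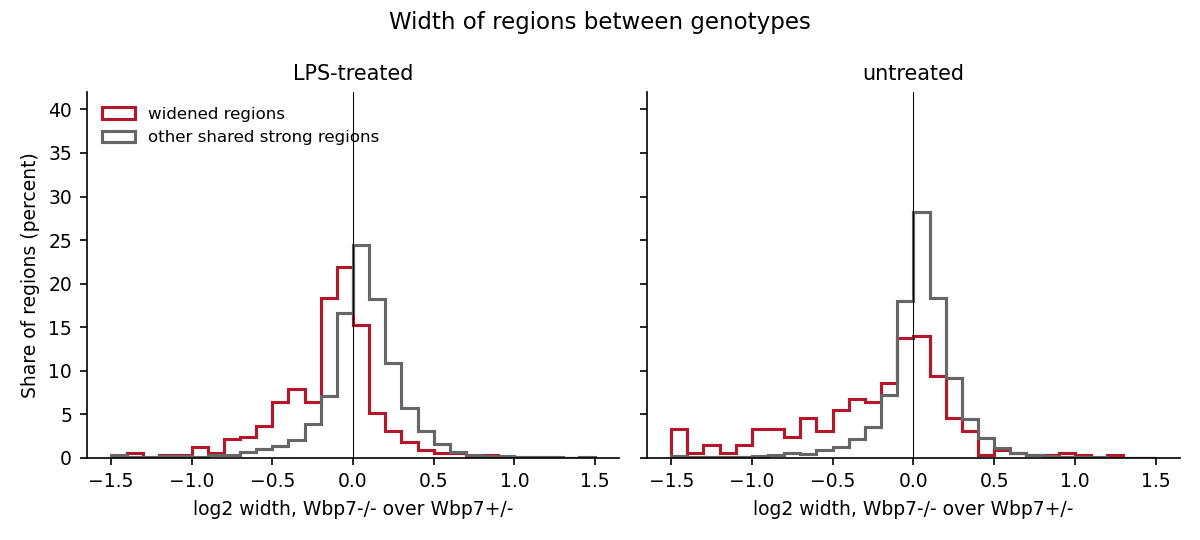
Distribution of the log2 width, Wbp7-/- over Wbp7+/- cells, in LPS-treated (left) and untreated cells (right), as the percent of regions per bin of 0.1, with values beyond 1.5 in the end bins. The members (red) peak below 0 after LPS, with a median of -0.10, and have a long lower tail when untreated, whereas the other shared strong regions (grey) peak just above 0.

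Most of the lower tail in untreated cells was made of members with a weak untreated peak in Wbp7-/- cells. In untreated cells 25 members had at most a 0.5-fold width in Wbp7-/- cells, and 2 the reverse, whereas after LPS these numbers were 4 and 0. Over all shared strong regions the same numbers were 67 (0.68%) and 15 (0.152%) untreated, and 76 (0.772%) and 37 (0.376%) after LPS. At the 25, the median log2 width, Wbp7-/- over Wbp7+/-, was -0.27 after LPS and -1.36 untreated. A score under 500 in the untreated Wbp7-/- list was present at 20 of the 25 (80.0%), against 29 of 42 (69.0%) such regions outside the members. At the ceiling in the untreated Wbp7+/- list were 13 of the 25 (52.0%), fewer than the 34 of 42 (81.0%) outside the members. A low untreated width in Wbp7-/- cells raises the chance of passing the rule, so the approach of the genotypes after LPS is partly set by it. At those 42 regions, the same medians were -1.31 after LPS and -1.32 untreated.

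Untreated peak scores of the members were often below those of other shared strong regions. Members at the ceiling numbered 292 of 328 (89.0%) in LPS-treated and 192 (58.5%) in untreated Wbp7-/- cells, against 89.9% and 91.2% of all shared strong regions. In Wbp7+/- cells they numbered 317 (96.6%) after LPS and 247 (75.3%) untreated, against 94.1% and 96.4%. The shares of members were thus near the background after LPS and below it untreated. At 79 members (24.1%) neither untreated list reached the ceiling, against 1.68% of all shared strong regions. Of the 79, 52 (65.8%) reached it in both LPS lists, against 14 of 86 (16.3%) such regions outside the members. The rule partly sets both shares, because any such region needed the ceiling in at least 1 LPS list. Members were also selected for wider LPS peaks, so the difference between the shares is a description. An untreated score under 500 was found at 59 members (18.0%), against 2.36% of all shared strong regions. The part of peak strength and read depth in the widening was not tested. The label strong therefore holds for all members in at least 1 list, but not for all of them before LPS. At the ceiling in all 4 lists were 189 members, against 85.5% of all shared strong regions.

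Among these 189, the genotype contrast in width was present as well. Of them, 27.0% (21.2 to 33.7) were wider in Wbp7-/- cells after LPS, against 68.1% of the 8423 shared strong regions at the ceiling in all 4 lists, and 39.7% (33.0 to 46.8) untreated, against 67.2%. The median log2 ratio with LPS was 0.68 in Wbp7-/- and 0.71 in Wbp7+/- cells. The log2 ratio was larger in Wbp7-/- cells at 46.6% of the 189 (39.6 to 53.7), against 53.1% of the 8423. Among all members, which include the 189, it was 54.6%.

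Some members lay beside regions that gained a peak with LPS. A gained region is one that both LPS lists hold and that is missing from both untreated lists, and 329 of the 18786 were of this kind. One lay within 10 kb of 31 members (9.45%, 6.74 to 13.1), against 1.24% of all shared strong regions. Any other region, gained or not, lay within 10 kb of 165 members (50.3%, 44.9 to 55.7), against 36.4%, and the part of this closeness in the count of gained neighbours was not tested. A gained region lay within 1 kb of 13 members, against 0.538%. The members thus made up 31 of the 122 shared strong regions near a gain. Both measures come from the same 4 lists and the same contrast, so this is a description and not independent evidence.

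The nearest such neighbours almost touched the member. On chromosome 2, the member from 93299014 to 93303124 had a gained region 5 bp away, from 93297415 to 93299008, whose peaks measured 1594 bp with LPS in Wbp7-/- cells and 1193 bp with LPS in Wbp7+/- cells. On the same chromosome, the member from 164879938 to 164885814 had a gained region 25 bp away, from 164885840 to 164888370, with 2531 and 2378 bp in LPS-treated Wbp7-/- and Wbp7+/- cells. A member on chromosome 6 from 129184414 to 129188918 had one 51 bp away, from 129183340 to 129184362. The nearest gained region lay on the side of the further-moved edge at 16 of the 31 members. Split at 1 kb, a distance chosen after the data were seen, it lay on that side at 10 of 13 members (76.9%, 49.7 to 91.8) up to that distance and at 6 of 18 (33.3%, 16.3 to 56.3) beyond it.

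The broadest gained region near a member lay on chromosome 11 from 117835263 to 117842148, with 6377 bp with LPS in Wbp7-/- cells and 6871 bp with LPS in Wbp7+/- cells. Members stood on both sides of it. The one from 117823570 to 117832608 covered 7037 and 3675 bp with and without LPS in Wbp7-/- cells and 8961 and 5382 bp in Wbp7+/- cells. The one from 117847060 to 117855001 covered 7779 and 4909 bp in Wbp7-/- cells and 7590 and 4126 bp in Wbp7+/- cells.

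Members were found on all 20 chromosomes represented in the lists. Their share of the shared strong regions was highest on chromosome 3, with 22 of 446 (4.93%), and on chromosome 14, with 16 of 327 (4.89%). It was lowest on chromosome 13, with 7 of 394 (1.78%). Chromosome 11 held the most members, 33 of 841. The X chromosome held 8 of 297.

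Members also lay near each other. Another member was within 100 kb of 74 of the 328 (22.6%, 18.4 to 27.4), whereas a member was within 100 kb of 4.95% of the 9522 other shared strong regions. This distance was chosen after the data were seen. Any other region, member or not, lay within 10 kb of 50.3% of the members and 35.9% of the 9522. The part of this closeness in the nearness of members to each other was not tested. The 74 formed 32 runs, 23 with 2 members, 8 with 3 and 1 with 4. The 9 runs of 3 or more held 28 members among 34 shared strong regions, and in 5 of the 9 every shared strong region was a member.

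The run of 4 lay on chromosome 3 from 142158605 to 142287276. Its first region, from 142158605 to 142164784, covered 5939 and 1590 bp with and without LPS in Wbp7-/- cells and 6160 and 3046 bp in Wbp7+/- cells. The next, from 142191978 to 142196269, covered 3593 and 1737 bp in Wbp7-/- cells and 4175 and 2061 bp in Wbp7+/- cells. All 4 shared strong regions of this stretch were members, with mean log2 ratios of 1.03 to 1.46. The third, from 142222688 to 142228640, had 4840 and 1882 bp in Wbp7-/- cells and 5830 and 2526 bp in Wbp7+/- cells. The last, from 142282927 to 142287276, had 4161 and 1251 bp in Wbp7-/- cells and 4294 and 2087 bp in Wbp7+/- cells.

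On chromosome 19, 3 members lay between 34643610 and 34721045, together with 4 gained regions. The first, from 34643610 to 34649533, covered 5518 and 2003 bp with and without LPS in Wbp7-/- cells and 5924 and 4175 bp in Wbp7+/- cells. The second, from 34659207 to 34661566, was narrow and covered 1754 and 491 bp in Wbp7-/- cells and 2342 and 1724 bp in Wbp7+/- cells. The third, from 34713736 to 34721045, covered 7167 and 3145 bp in Wbp7-/- cells and 7241 and 3889 bp in Wbp7+/- cells. Each was narrower in Wbp7-/- cells than in Wbp7+/- cells without LPS, and the log2 ratio was larger in Wbp7-/- cells at all 3.

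On chromosome 6, 3 members lay between 129130348 and 129226780 with 1 gained region. That from 129184414 to 129188918 was nearly equal in the genotypes, with 4492 and 2045 bp in Wbp7-/- cells and 4450 and 2035 bp in Wbp7+/- cells. Its neighbour from 129222573 to 129226780 had 4201 and 1041 bp in Wbp7-/- cells and 3526 and 2052 bp in Wbp7+/- cells. On chromosome 14, 3 members between 59877710 and 59984562 included the region from 59957870 to 59960302, with 2111 and 765 bp in Wbp7-/- cells and 2381 and 1335 bp in Wbp7+/- cells. On chromosome 11, 3 of the 4 shared strong regions between 83387324 and 83520697 were members. The 3 had mean log2 ratios of 0.53, 0.67 and 1.18, and the fourth, from 83475045 to 83478607, had 0.20.

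Chromosome 17 had 2 such stretches. Between 34322124 and 34402726, 3 of 4 shared strong regions were members, among them the region from 34322124 to 34328941 with 6352 and 3944 bp in Wbp7-/- cells and 6797 and 3967 bp in Wbp7+/- cells. Between 36133934 and 36260981, 3 of 6 were members, and the other 3 had mean log2 ratios of 0.17, 0.37 and 0.49, all above the median of -0.04 over all shared strong regions. On chromosome 5 between 121224396 and 121358000, 3 of 4 were members, with mean log2 ratios of 0.51 to 0.60, and the fourth had 0.36. In these runs, regions outside the rule lay below the threshold by construction and on the positive side of the log2 scale.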

How the data were processed

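H3K4me3 ChIP-seq was done in 4 libraries, 1 per group. Reads were aligned with Bowtie to mm9, per the submitters' processing notes. The authors deposited MACS peaks per library, per the file headers, with a score for each peak and the mention of an input sample. Program versions, thresholds and read numbers were not stated in the labels or headers. MACS normally derives this score from a peak's p-value on a log10 scale, and it was used here only to class peaks. Whether the score pile-up at 3100 marks p-values stored as 0 is not stated.

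Peaks of the 4 lists that overlapped by 1 bp or more were joined with bedtools 2.31.1. Per list, peak widths of a region were summed, and log2 ratios and edge shifts were computed (Python 3.11.15; numpy 2.4.6; pandas 2.3.3). Shares have 95% Wilson intervals (scipy 1.17.1), and a count of 0 the limit of 3 counts. Plots used matplotlib 3.10.9. Joining, ratios and edge shifts were tested on simulated lists with known widened regions. Groups came from sample titles. No test between groups was run.

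The members, the measures and the list of alternatives were chosen with earlier results of these data known. Most named regions were taken by rank from the 20 largest mean log2 ratios, the 5 broadest after LPS, 5 on each side of the threshold, the 5 largest and 5 smallest differences between genotypes, and 5 with more than 1 untreated peak. Regions in runs, beside gains, or widened by gap filling were chosen after their values were seen. The gene lists planned for mm9 were not used, because the gene table was of GRCm38.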

Additional observations from a re-analysis of the deposited data

Results flagged for a closer look

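A single member was picked out because its width changed in opposite directions in the genotypes. On chromosome 2 from 9798534 to 9801538, peaks covered 1418 bp in LPS-treated and 569 bp in untreated Wbp7-/- cells, a log2 ratio of 1.32. In Wbp7+/- cells they covered 2805 bp after LPS and 2934 bp untreated, a log2 ratio of -0.0649. The scores were 114.58 and 81.89 with and without LPS in Wbp7-/- cells, and 3100 in both Wbp7+/- lists. The difference was not tested, since each group had 1 library.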

How the results depend on the processing

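Of 81 alternative values (9 results under 9 alternatives), 62 stayed within 1.5 times the reported count or inside the 95% Wilson interval of the reported share, and 19 did not. Joining peaks within 1 kb gave 372 widened regions, which overlapped 318 of the 328, and measuring the span in place of the summed width gave 321. Requiring the ceiling in all 4 lists cut the members to 189, those widened in both genotypes to 116 and the narrowed regions to 34, by construction, and put the share with a larger ratio in Wbp7-/- cells at 46.6%. With peaks scoring under 100 dropped, the share with more untreated than LPS peaks was 9.97% (11.6% with peaks joined within 1 kb), and the share near a gained region 6.23%, against 0.909% of all shared strong regions. Narrowed regions numbered 142 at a threshold of 0.4, 32 at 0.6, and 45 with ratios centred on the median region. Chosen on the Wbp7-/- ratio alone, so that the LPS-treated Wbp7+/- library of uncertain time enters only the pool of shared strong regions and the comparisons between genotypes, 356 regions were widened and 114 narrowed. Of the 356, 34.6% were wider in Wbp7-/- cells after LPS, 22.8% were wider there untreated, and 73.6% had the larger ratio there. Chosen on the Wbp7+/- ratio alone, 161 regions were narrowed, 11.7% of the 376 widened ones had more untreated than LPS peaks, 21.3% were wider in Wbp7-/- cells after LPS and 48.1% untreated, and 30.6% had the larger ratio there. Choosing on 1 genotype favours a larger ratio in that genotype by construction. Under every alternative the share of members wider in Wbp7-/- cells was below that of all shared strong regions, at 21.3 to 34.6% after LPS and 22.8 to 48.1% untreated. These shares come from widths that the rules used, so they are a description too. The lowest and highest of them all came from rules on 1 genotype. Such a rule favours a wide LPS or a narrow untreated width in that genotype. No paired analysis was possible because each group had 1 library and no test was run. Depth limits the rest: read numbers are unknown, so widths cannot be compared at equal depth.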
